A study of Mus musculus with 2 samples.

Results

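The poly(ADP-ribose) polymerase (PARP) genes were followed in cultured mouse dermal cells after knockdown of β-catenin. The family was represented by 10 listed genes: Parp9, Parp10, Parp12 and Parp14, which are known as interferon-induced, the DNA repair genes Parp1, Parp2 and Parp3, and Parp4, Parp8 and Parp11. A gene was measured where a probe set of the array carried its symbol and no other, which held for 9 of the 10 listed genes among 19938 measured genes. The probe set of Parp4 is also annotated to Mphosph8, so its value cannot be given to either gene. The genes and their grouping were chosen with the differences between these arrays known, so those differences describe the family and test nothing.

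The cells were isolated from back skin dermis of C57BL/6 mice on the day of birth and had been in culture for 24 h. They then received siRNAs against β-catenin (1 array) or a control siRNA (1 array), each at 10 nM for 48 h. Both groups were transfected, but with different siRNAs. Effects of the siRNAs themselves and of lower β-catenin cannot be told apart in this design, and neither was tested. Small interfering RNAs (siRNAs) are short RNA duplexes that direct cleavage of a matching transcript. Transcripts were measured on an Affymetrix whole-transcript array from 300 ng of total RNA. How many pups or cultures stood behind an array is not stated in the labels. Without replicate arrays there is no error between cultures and no test, and each difference is a single subtraction of log2 values, β-catenin siRNA minus control siRNA.

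PARP enzymes transfer ADP-ribose from NAD onto proteins or nucleic acids. Parp1 and Parp2 build poly(ADP-ribose) chains at DNA breaks, which recruit repair factors, whereas most other active members attach single ADP-ribose units. Several members with macrodomains or zinc fingers belong to the antiviral programme that interferons switch on through Stat and Irf transcription factors. The tankyrases connect the family to β-catenin, since they mark axin, a scaffold of the complex that destroys β-catenin, for degradation.

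Promoter sequences are shown first for members that differ in the letters known to be bound by interferon-activated factors. RefSeq windows (build GRCm38.p6) run from 250 bases before a gene's start to 50 bases after it and are written 5′ to 3′ on the gene's strand. They were held for 7 of the 10 listed genes, 8 windows in all, and the entries of Parp9, Parp10 and Parp14 were missing. Capitals mark matches to the core of the interferon-stimulated response element, GAAA and GAAA with any 2 bases between them, or on the other strand TTTC and TTTC with any 2 bases between them. They also mark the core of the gamma-activated site, TTC and GAA with any 3 bases between them, which reads the same on both strands. Parp11 and Parp4 are shown because they were the members with a match, and Parp1 because it is the main DNA repair member. Parp12 is shown because, of Parp9, Parp10, Parp12 and Parp14, it alone had a window.
Parp12 (chr6:39118300-39118599, minus strand): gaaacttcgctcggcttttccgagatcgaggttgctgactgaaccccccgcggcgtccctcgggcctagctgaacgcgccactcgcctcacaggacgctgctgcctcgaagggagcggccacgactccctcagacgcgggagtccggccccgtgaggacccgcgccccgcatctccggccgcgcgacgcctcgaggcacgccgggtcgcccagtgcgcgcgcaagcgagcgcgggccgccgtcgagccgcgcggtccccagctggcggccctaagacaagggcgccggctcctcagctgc
Parp11, the window of the upstream of its listed starts (chr6:127446590-127446889, plus strand): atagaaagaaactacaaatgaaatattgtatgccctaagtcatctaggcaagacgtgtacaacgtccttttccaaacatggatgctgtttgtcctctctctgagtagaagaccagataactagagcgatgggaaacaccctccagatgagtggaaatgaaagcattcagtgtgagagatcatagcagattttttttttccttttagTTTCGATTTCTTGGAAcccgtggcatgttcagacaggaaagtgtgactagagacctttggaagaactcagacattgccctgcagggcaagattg
Parp4 (chr14:56575369-56575668, plus strand): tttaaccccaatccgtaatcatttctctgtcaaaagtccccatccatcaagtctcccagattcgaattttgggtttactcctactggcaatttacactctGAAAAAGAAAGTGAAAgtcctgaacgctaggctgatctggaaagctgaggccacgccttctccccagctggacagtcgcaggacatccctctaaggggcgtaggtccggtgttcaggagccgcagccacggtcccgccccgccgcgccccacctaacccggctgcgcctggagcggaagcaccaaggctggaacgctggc
Parp1 (chr1:180568641-180568940, plus strand): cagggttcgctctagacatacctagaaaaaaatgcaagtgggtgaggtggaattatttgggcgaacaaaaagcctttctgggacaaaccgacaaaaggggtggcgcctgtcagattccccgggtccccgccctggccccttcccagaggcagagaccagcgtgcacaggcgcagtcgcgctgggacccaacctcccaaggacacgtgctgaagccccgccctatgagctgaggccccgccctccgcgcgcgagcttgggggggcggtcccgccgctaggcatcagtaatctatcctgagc

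The Parp11 window held 1 match to the response element beginning 44 bases before the start, which overlapped a match to the gamma-activated site beginning 37 bases before it. In the Parp4 window 2 overlapping matches to the response element began 150 and 144 bases before the start. No match to either motif was found in the windows of Parp12, Parp1, Parp2, Parp3 or Parp8, or in the window of the downstream start of Parp11. Of 32851 windows of the same length in the RefSeq table, 3.44% held the response element core and 8.30% the gamma-activated site core. CpG dinucleotides numbered 46 in the Parp12 window, which was 73.7% G and C, 20 in that of Parp1, 17 in that of Parp4 and 5 in the upstream window of Parp11, against a median of 7 over all windows. A match of letters is a description of these windows and not a bound site, and a window without a match says only that these letters do not occur in it.

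The targeted transcript was lower. Ctnnb1, which encodes β-catenin, had a log2 value of 9.34 on the β-catenin siRNA array, against 10.48 on the control siRNA array, or 45.2% of the control signal. Values were deposited after robust multi-array average (RMA), which equalises the arrays, so a difference is relative to the other probe sets. The array medians over all probe sets were 4.71 with β-catenin siRNA and 4.68 with control siRNA. For the comparison with other genes, 10197 genes were kept whose higher value reached the median of gene means, 5.13 on the log2 scale. A gene could thus be kept through 1 array alone, the one where it was higher. All 9 measured PARP genes passed this filter. Over the kept genes the median difference was -0.02, the robust SD (scaled median absolute deviation) was 0.22, and the central 95% of differences ran from -0.54 to 0.62. Array noise, culture-to-culture variation and siRNA effects all enter that spread, which is given only as a scale.

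All 4 members grouped here as interferon-induced were higher after β-catenin siRNA by at least 1.5-fold, 2 of them by at least 2-fold. The corresponding shares of kept genes were 2.76% at 1.5-fold and 0.912% at 2-fold. Since the members were chosen on this contrast, nothing is read from the gap between those shares and their count. Other PARP genes may also respond to interferon, and no response to interferon was measured here.

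Parp14, a large protein with macrodomains that acts with Stat6 in cytokine responses, had a log2 value of 6.13 with β-catenin siRNA and 4.52 with control siRNA. The difference of 1.61, or 3.05-fold, was the largest among the measured PARP genes and stood at rank 25 of the 10197 kept genes. Its control value lay 0.61 under the level filter, and RMA compresses the differences of dim probe sets, so the size of this fold is uncertain.

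Parp9 encodes a macrodomain protein that works in a complex with the ubiquitin ligase Dtx3l. It had a log2 value of 7.17 with β-catenin siRNA and 6.04 with control siRNA, a difference of 1.13 or 2.18-fold, at rank 69. Both of its values were above the level filter.

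Parp10, a mono-ADP-ribosyltransferase first described as a partner of Myc, had a log2 value of 5.83 with β-catenin siRNA and 4.94 with control siRNA. The difference was 0.89, or 1.85-fold, at rank 129, and here too the control value was under the filter, by 0.20.

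Parp12, a zinc finger protein of the Golgi with antiviral activity, had a log2 value of 8.09 with β-catenin siRNA and 7.41 with control siRNA. Its difference of 0.67, or 1.60-fold, was the smallest of the 4 and stood at rank 208. Of the 1000 kept genes nearest in level, 1.7% were at least 1.5-fold higher around Parp12 and 2.0% around Parp9. That share was 4.4% around Parp14 and 4.5% around Parp10, so differences of this size were commoner among genes with values like those of Parp14 and Parp10.

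**Figure D1:**
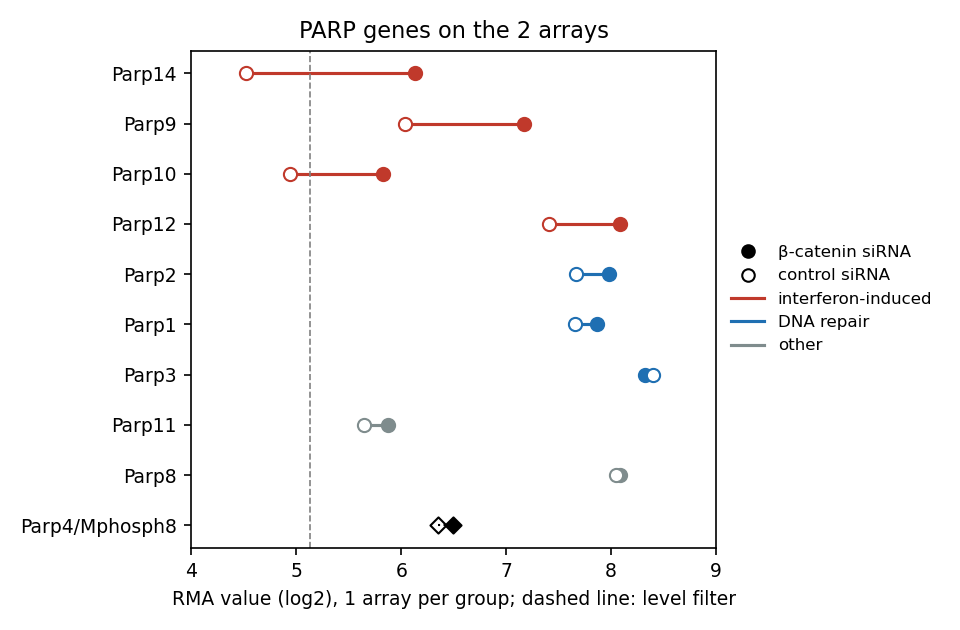
RMA values (log2, x axis) of the measured PARP genes on the β-catenin siRNA array (filled) and the control siRNA array (open), 1 array per group, with a line joining the values of a gene. The 4 interferon-induced genes have the longest lines, from 0.67 to 1.61, and the control values of Parp14 and Parp10 lie left of the level filter at 5.13 (dashed). The diamonds are the probe set shared by Parp4 and Mphosph8.

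None of the 3 DNA repair members differed by 1.5-fold in either direction. Most kept genes did not either, since 2.76% rose and 1.84% fell by that much. Finding none among 3 genes is therefore unremarkable and does not set these members apart from other kept genes. Parp1, the main sensor of DNA breaks, had a log2 value of 7.86 with β-catenin siRNA and 7.66 with control siRNA, a difference of 0.21. Parp2, its close relative that shares part of this work, had 7.98 with β-catenin siRNA and 7.66 with control siRNA, a difference of 0.31. The value of Parp3, which acts in the joining of double-strand breaks, was 8.33 with β-catenin siRNA and 8.40 with control siRNA, a difference of -0.07. These differences lay inside the central 95% of kept genes, at ranks 904 for Parp2, 1637 for Parp1 and 6144 for Parp3.

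The remaining measured members also differed by less than 1.5-fold. Parp11, a mono-ADP-ribosyltransferase of the nuclear envelope and the member with both motifs in a promoter window, had a log2 value of 5.88 with β-catenin siRNA and 5.64 with control siRNA, a difference of 0.23. Parp8, another mono-ADP-ribosyltransferase, had 8.08 with β-catenin siRNA and 8.05 with control siRNA, a difference of 0.04. The probe set shared by Parp4, a component of cytoplasmic vault particles, and Mphosph8 had 6.50 with β-catenin siRNA and 6.35 with control siRNA, a difference of 0.15 that belongs to no single gene.

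The median difference was 1.01 for the 4 interferon-induced members and 0.21 for the 3 DNA repair members, a gap of 0.80. The smallest difference of the interferon-induced members, 0.67 for Parp12, was above the largest of the other measured members, 0.31 for Parp2, so the sets did not overlap in their differences. They were formed with these values known, and the gap has no replicate error.

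**Figure D2:**
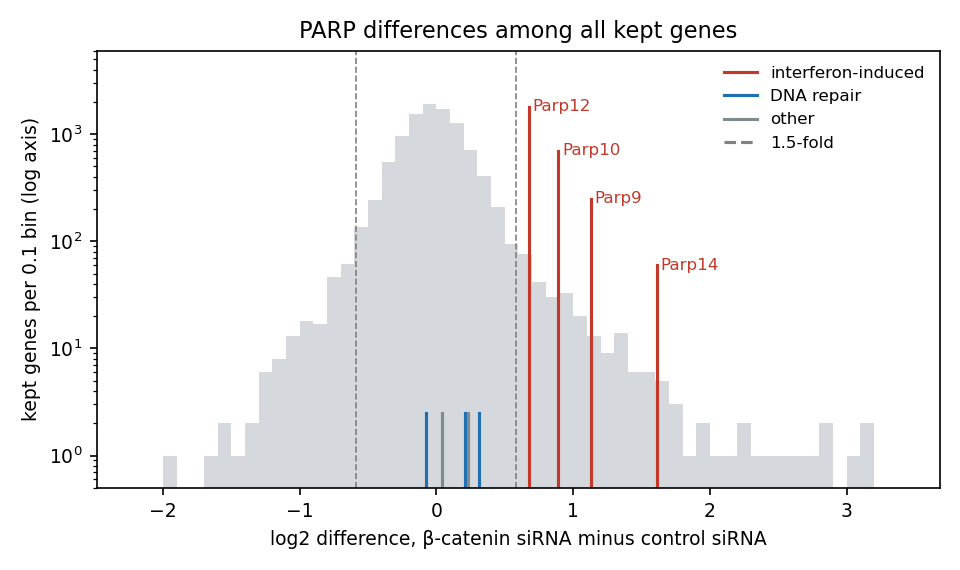
Histogram of the log2 difference, β-catenin siRNA minus control siRNA (x axis), over 10197 kept genes in bins of 0.1 (y axis, log scale), with the PARP genes as coloured lines whose height has no meaning. The 4 interferon-induced genes stand beyond the 1.5-fold line (dashed) on the right, and the DNA repair and other members lie between -0.07 and 0.31.

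**Figure D3:**
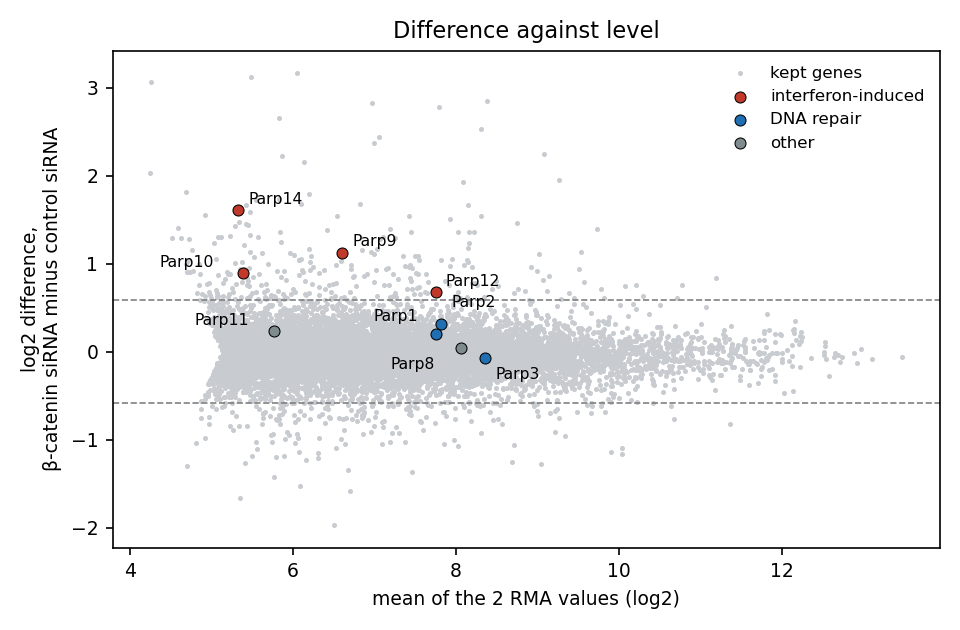
Log2 difference, β-catenin siRNA minus control siRNA (y axis), against the mean of the RMA values of both arrays (log2, x axis) for all kept genes (grey) and the PARP genes (coloured by group). Parp14 and Parp10 sit at the dim end, where the grey cloud is wider, and Parp12 at 1.60-fold lies just above the 1.5-fold line (dashed), where the cloud is narrower.

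Of the 6 further genes of the family, none differed by 1.5-fold, and 5 of them passed the level filter. Zc3hav1, the antiviral zinc finger protein ZAP that binds CpG-rich viral RNA, had a log2 value of 7.58 with β-catenin siRNA and 7.20 with control siRNA. Its difference of 0.38 was the largest of the 6. The tankyrase genes differed little, Tnks by 0.18 (8.25 with β-catenin siRNA and 8.06 with control siRNA) and Tnks2 by 0.07 (8.87 with β-catenin siRNA and 8.80 with control siRNA). Tiparp, a target of the aryl hydrocarbon receptor, differed by -0.01, Parp6 by -0.0030, and Parp16, an enzyme of the endoplasmic reticulum whose values were under the filter, by 0.15. The median over the 5 kept genes was 0.07.

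Parp14, Dtx3l and Parp9 are neighbours on mouse chromosome 16 in the RefSeq gene table, and all 3 were at least 1.5-fold higher. Dtx3l, the ubiquitin ligase partner of Parp9, had a log2 value of 6.85 with β-catenin siRNA and 5.92 with control siRNA, a difference of 0.93 or 1.91-fold. On the far side of Parp14, Hspbap1 differed by -0.18 and Slc49a4 by 0.10. Beyond Parp9, the nuclear import gene Kpna1 differed by -0.26, and Wdr5b, which encodes a WD repeat protein, had 5.67 with β-catenin siRNA and 4.78 with control siRNA, a difference of 0.89 from a control value under the level filter. The higher values were therefore not continuous along this stretch, since Kpna1 lies between Parp9 and Wdr5b. Counting the nearest 2 measured protein-coding genes on each side of every measured member, and leaving out PARP genes, 33 neighbours were found, of which 20 were kept. Among these 20 genes, 3 were at least 1.5-fold higher, beside 2.76% of all kept genes, and none as much lower. The median difference of the 20 was 0.06. Of the 3, Dtx3l and Wdr5b lie in the stretch around Parp14 and Parp9, so they are not separate places. The third, beside Dtx3l and Wdr5b, was Emb, which encodes the cell surface glycoprotein embigin and lies next to Parp8, with 7.90 with β-catenin siRNA and 6.94 with control siRNA. Around Parp10 and Parp12 no neighbour differed by 1.5-fold, and the kept ones ranged from -0.26 for Plec to 0.31 for Kdm7a.

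**Figure D4:**
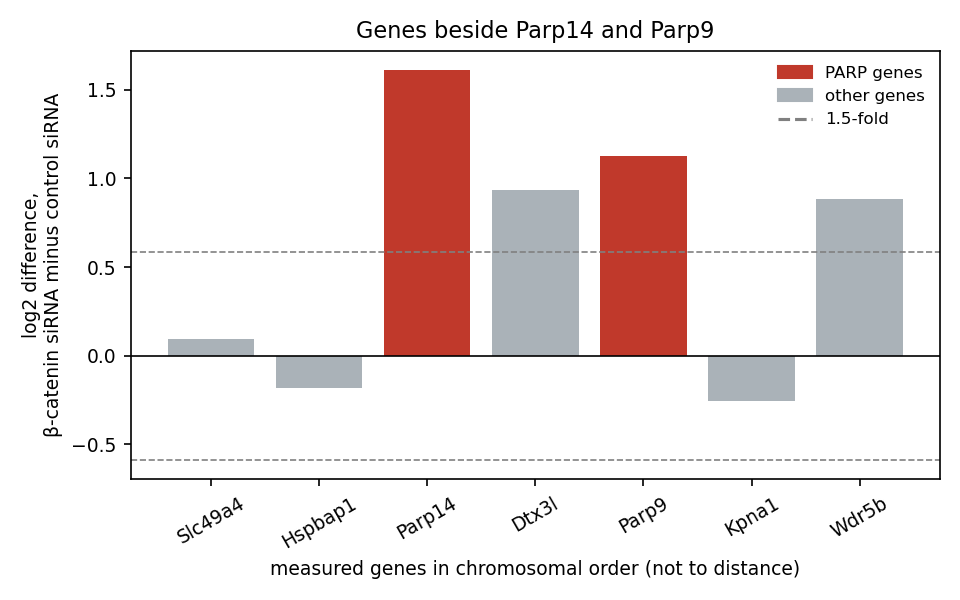
Log2 difference, β-catenin siRNA minus control siRNA (y axis), of 7 measured genes in their order on chromosome 16 (x axis, distances not drawn), 1 array per group. Parp14 at 1.61, Dtx3l at 0.93 and Parp9 at 1.13 form a run above the 1.5-fold line (dashed), with Hspbap1 and Kpna1 below 0 on its flanks and Wdr5b at 0.89 beyond Kpna1.

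Genes of the enzymes and proteins that work with PARPs differed less, apart from Dtx3l. Of 17 kept genes for partners and readers of ADP-ribose, 11 were above 0, compared with 45.8% of all kept genes. Of the 17, 1 was at least 1.5-fold higher, beside 2.76% of all kept genes, and none was as much lower. Their median was 0.09. Dtx1 and Aplf, both above 0, were kept only through their β-catenin siRNA values, with control siRNA values of 5.03 and 5.08. Hpf1, a cofactor that directs Parp1 and Parp2 to serine residues, had a log2 value of 6.97 with β-catenin siRNA and 6.56 with control siRNA, a difference of 0.41 and the largest after Dtx3l. Of 7 measured genes for removal of ADP-ribose, all kept, none differed by 1.5-fold and the median was -0.01. Parg, the main hydrolase of poly(ADP-ribose) chains, differed by 0.16 (7.29 with β-catenin siRNA and 7.13 with control siRNA). Within that group the largest differences were 0.29 for Nudt5 and 0.25 for Oard1, both hydrolases of ADP-ribose derivatives.

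Other DNA break repair genes were slightly higher in most cases, as Parp1 and Parp2 were. Of 12 kept genes in this list, 9 were above 0, compared with 45.8% of all kept genes, and none reached 1.5-fold. Their median was 0.29. Prkdc, among those above 0, was kept only through its β-catenin siRNA value of 5.32, with 4.93 on the control siRNA array. Nothing is read from the count. The damage kinase gene Atm differed by 0.45 (6.07 with β-catenin siRNA and 5.62 with control siRNA), and Xrcc5, which encodes the end-binding protein Ku80, by 0.43 (8.19 with β-catenin siRNA and 7.76 with control siRNA). These differences were within the central 95% of kept genes.

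Some transcripts of interferon signalling genes were higher as well. Whether they had a part in the PARP differences was not tested. Stat2 was 2.07-fold higher (8.08 with β-catenin siRNA and 7.03 with control siRNA), Irf9, its DNA-binding partner, 1.52-fold (7.49 with β-catenin siRNA and 6.88 with control siRNA), and Irf7 3.20-fold (7.67 with β-catenin siRNA and 5.99 with control siRNA). Usp18, a feedback inhibitor of the interferon receptor, was 4.47-fold higher, with 7.21 on the β-catenin siRNA array and 5.05, under the filter, on the control siRNA array. The 4 genes were the only ones of 13 kept in this list at or above 1.5-fold, beside 2.76% of all kept genes. The median of the 13 was 0.24. None was as much lower, although the kinase gene Jak2, at -0.55 (8.97 with β-catenin siRNA and 9.52 with control siRNA), lay below the central 95% of kept genes. The 4 interferon genes examined, Ifnb1, Ifna4, Ifnk and Ifng, were under the level filter on both arrays, with differences from -0.35 for Ifng to 0.31 for Ifnb1.

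**Figure D5:**
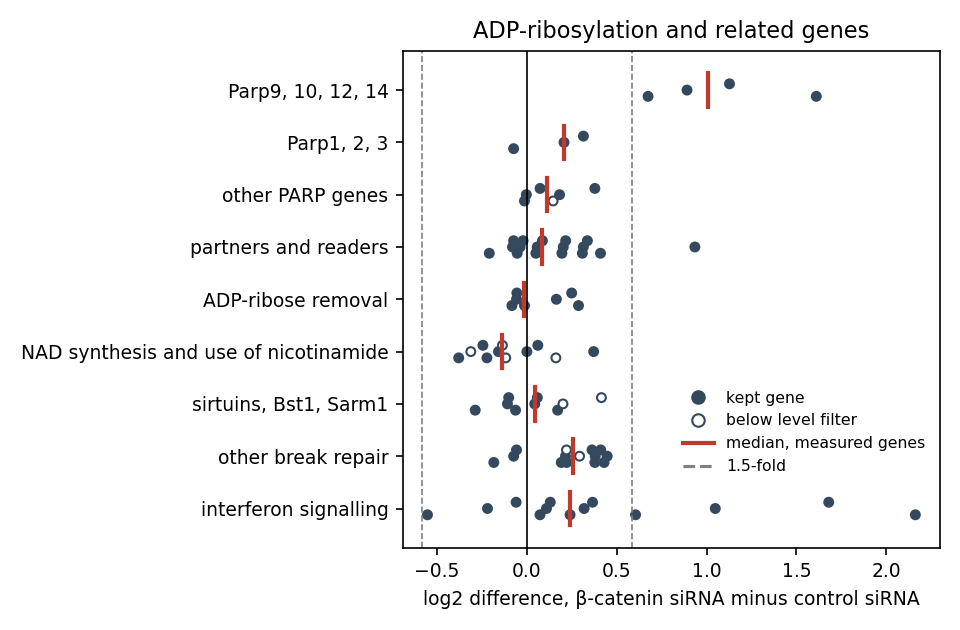
Log2 difference, β-catenin siRNA minus control siRNA (x axis), of each measured gene in 9 gene groups (y axis), 1 array per group. Filled points are genes above the level filter, open points are below it, and red bars are medians over measured genes. Among groups other than Parp9, Parp10, Parp12 and Parp14, points past the 1.5-fold line (dashed) are Dtx3l and 4 interferon signalling genes.

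Markers of dermal fibroblasts were kept for 10 of 10 genes, with differences from -0.15 for Thy1 to 1.29 for Lum. The 3 at least 1.5-fold higher were the proteoglycan genes Lum (2.44-fold) and Dcn (1.79-fold) and the growth factor receptor gene Pdgfra (1.69-fold). These are 3 of 10, beside 2.76% of all kept genes, and none was as much lower. Of 10 keratinocyte markers, 8 were above 0 and 1 was below. The 6 that passed the level filter were all above 0, compared with 45.8% of all kept genes. Of these 6, 3 were at least 1.5-fold higher, beside 2.76% of all kept genes. Epcam, among the 6, was kept only through its β-catenin siRNA value of 5.26, with 4.76 on the control siRNA array. The basal keratin gene Krt5 had 8.65 with β-catenin siRNA and 7.64 with control siRNA, Krt14 was 1.54-fold higher and Cdh1, which encodes E-cadherin, 1.69-fold. Of the 4 under the filter, Krt15 differed by -0.55, Krt10 and Trp63 by 0.0 and 0.01, and Krt1 by 0.22. The summed linear signal of the 10 was 1185 with β-catenin siRNA and 769 with control siRNA, mostly from Krt5 and Krt14. Of 8 macrophage markers Lyz2 alone was kept, 1.55-fold higher from a control value under the filter, while the other 7 were under the filter on both arrays and below 0, down to -0.49 for Ptprc. All 5 melanocyte markers were below 0, 3 of them kept, and their summed signal was 135 with β-catenin siRNA and 162 with control siRNA. Pmel was kept only through its control siRNA value of 5.34, with 5.07 on the β-catenin siRNA array. No T cell marker of 4 was kept. The part of these cells in the PARP differences was not tested. In bulk RNA more or fewer cells of a type and more or less RNA per cell cannot be told apart.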

How the data were processed

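Transcripts were measured on 2 Affymetrix whole-transcript arrays, 1 per group. Each array had 1 deposited log2 value per probe set. The authors used RMA, per the submitters' processing notes. The version of the software is not given in the sources used here. The log2 scale was judged from the range of 0.485 to 13.5. Probe intensities and detection calls were not used here, and the number of arrays limits the precision.

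Of 28944 probe sets, 21789 had 1 gene symbol in the platform annotation, 1621 several and 5534 none. Symbols were updated through gene identifiers for 21698, and the other 91 kept theirs. The probe set with the highest mean stood for a gene. Differences, medians, counts at 1.5-fold and 2-fold, and a level filter at the median of gene means were computed with numpy 2.4.6 and pandas 2.3.3. Lowess centring used statsmodels 0.14.6. The steps were tested on simulated data. Alternatives were other centrings, filters, folds and probe set rules. The members and gene lists were chosen with earlier results of these data known. Named genes were all members, further family genes, Ctnnb1, set partners, kept listed genes at least 1.5-fold different, neighbours at least 1.5-fold different and the 2 largest differences of kept genes in a list. Other neighbours, markers and listed genes named were picked once their values were known. Some listed genes, Parp4 among them, were not analysed here.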

Additional observations from a re-analysis of the deposited data

How the results depend on the processing

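No paired analysis was possible because each group had 1 array, and for the same reason no replicate could be left out. The robust SD of 0.22 served as the yardstick for a move. Under median and lowess centring the differences of the 9 measured members moved by at most 0.03, and the 4 interferon-induced members stayed at least 1.5-fold higher. The mean of probe sets and the admission of shared probe sets could not move these values, since each of the 9 had 1 probe set, and say nothing about their stability. The count of higher members fell to 2 at 2-fold. With the level filter at the 75th percentile, 7.12 on the log2 scale, it was also 2, Parp9 and Parp12. Parp9 passed that filter only through its β-catenin siRNA value of 7.17, with 6.04 on the control siRNA array. An alternative chosen after seeing the data required both values to pass the level filter, which left out Parp10 and Parp14. It gave 2 as well. The group median was then 0.90 and the gap to the DNA repair members 0.69. Over the kept genes, those at least 1.5-fold higher numbered 281 and those lower 188. They were 93 and 34 at 2-fold, 444 and 469 without a level filter, and 129 and 100 with the filter at the 75th percentile.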

Other observations

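PARP enzymes consume NAD, and genes of NAD supply showed no large differences. Of 7 kept genes, 2 were above 0, compared with 45.8% of all kept genes, and 4 were below 0. None differed by 1.5-fold, as most kept genes did not, and the median was -0.16. Nampt, the rate-limiting enzyme of NAD salvage from nicotinamide, had a log2 value of 8.10 with β-catenin siRNA and 7.73 with control siRNA, a difference of 0.37. Nnmt, which methylates nicotinamide and so removes it from salvage, had 7.57 with β-catenin siRNA and 7.95 with control siRNA, a difference of -0.38. Sirtuins, the NAD-dependent deacylases, ranged from -0.29 for Sirt7 to 0.17 for Sirt6, and the median over 7 kept genes was -0.06.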
